A study of Mus musculus with 6 samples.

Results

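The RGS genes encode regulators of G-protein signalling, and 10 of them are described here: Rgs2, Rgs3, Rgs4, Rgs8, Rgs10, Rgs12, Rgs14, Rgs16, Rgs19 and Rgs20. Their rows were taken by gene symbol from a table of 54884 entries, and each symbol had 1 row. The set was selected on the rise of Rgs16 after circHIPK2 silencing, and its relatives were added by family, so the values of Rgs16 are a description and carry no test. Of the 10 genes, 8 had a mean of at least 1 FPKM (fragments per kilobase of transcript, scaled to the mapped fragments of the library) over all libraries and were tested. Rgs8 and Rgs14 were below that level, and the table held another 14 RGS-named genes.

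The cells were neural stem cells of C57BL/6 mice, grown from the hippocampus of embryos at day 14 and passaged in culture. In one group they carried a lentivirus with a control siRNA called circCon, and in the other a lentivirus with an siRNA against circHIPK2, a circular RNA made from the Hipk2 gene. Both groups had thus been infected, and each had 3 libraries of poly(A)-selected RNA. Nothing states that the libraries of a group came from separate cultures, so the p-values measure only how far these libraries spread, which may be technical. In bulk samples, fewer cells of a type and less RNA per cell cannot be told apart.

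An RGS protein ends a G-protein signal. A receptor loads the alpha subunit of a heterotrimeric G protein with GTP, and the RGS domain speeds the hydrolysis of that GTP, so that alpha and beta-gamma subunits join again. The R4 subfamily, of which the set has Rgs2, Rgs3, Rgs4, Rgs8 and Rgs16, holds mostly small proteins that act on Gi and Gq alpha subunits. The R12 subfamily (Rgs10, Rgs12 and Rgs14) and the RZ subfamily (Rgs19 and Rgs20) act mainly on the Gi class, and Rgs20 is known for its preference for Gz. Neural progenitors express many Gi- and Gq-coupled receptors, among them those for endothelin and lysophospholipids.

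The steps of the low FPKM values gave depths of 18410000 to 21900000 fragments for a library, so that 1 fragment of a 1 kb transcript was worth between 0.0457 and 0.0543 FPKM. A depth of double that size met the steps more often, for 46.8% to 48.5% of the values against 38.4% to 42.2%. The absolute depth is therefore uncertain and may be higher, and the fragments per kb given below use the lower depth. Markers of neural stem cells summed to between 1913 and 2457 FPKM in the controls and between 1734 and 2184 FPKM with the siRNA, and 9 of 10 had a mean of at least 1 FPKM. Neuronal markers (5 of 10 at that level) summed to 127 to 137 and 98.5 to 113 FPKM, astrocyte markers (7 of 7) to 406 to 700 and 358 to 742, and oligodendrocyte lineage markers (7 of 8) to 779 to 847 and 623 to 779. None of the markers of leukocytes, endothelium, pericytes and fibroblasts or red cells reached 1 FPKM, and Cx3cr1, C1qb and Ptprc were listed at 0. The liver markers summed to 39.9 to 64.9 FPKM in the controls and 2.12 to 2.23 FPKM with the siRNA, and 9 entries on the ribosomal RNA locus, or following it, held 0.321% to 0.580% of all FPKM in the controls and 3.24% to 19.9% with the siRNA. Whether the liver or neuronal markers bear on the RGS values was not tested. Adjusted p-values are from limma over all entries tested, with the Benjamini-Hochberg method. Hipk2 mRNA, which does not measure the circle and so checks no label, had 31.8, 36.9 and 30.9 FPKM in controls 1 to 3 against 28.3, 28.8 and 23.8 FPKM in siRNA 1 to 3 (limma adjusted p = 0.257).

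Of the 5 R4 genes in the set, 3 were higher in every siRNA library than in any control library, and 2 were not. The R4 genes Rgs1, Rgs5, Rgs13, Rgs18 and Rgs21, outside the set and at 0 to 0.339 FPKM, were not higher in this way either. Of the 3 genes, 1 is Rgs16, on which the set was chosen, and of all entries tested 2.65% were higher in this way. Rgs16, a small R4 protein that acts on Gi and Gq, had 4.95, 4.78 and 4.0 FPKM in controls 1 to 3 against 9.81, 9.60 and 11.6 FPKM in siRNA 1 to 3. The lowest siRNA library stood at 1.94 times the highest control library. The control mean was 4.58 ± 0.508 FPKM (SD, n = 3) and the siRNA mean 10.3 ± 1.07 FPKM (SD, n = 3), a 2.26-fold difference, and its log2 fold change was 1.02 on the log2(FPKM + 1) scale. Its 1 annotated transcript in GENCODE M21 has 2339 nt, so its level came to between 85.5 and 232 fragments per kb of transcript in a library at the estimated depths. It was highest in siRNA library 3, which also had the highest share of FPKM in the ribosomal locus entries (19.9%), and lowest of the siRNA libraries in library 2, where that share was 3.24%. With those 9 entries removed and the columns rescaled the log2 fold change was 1.21. An antisense entry over the gene, Gm28513, had 0.00321, 0.0757 and 0.0955 FPKM in controls 1 to 3 against 1.09, 0.585 and 0.0884 FPKM in siRNA 1 to 3. Without knowing whether counting used strand, reads of the pair cannot be told apart.

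Rgs8, best known from cerebellar Purkinje cells, was scarce: 0.111, 0.0948 and 0.0950 FPKM in controls 1 to 3 against 0.294, 0.539 and 0.495 FPKM in siRNA 1 to 3. All siRNA libraries lay above all controls, with means of 0.1 ± 0.00909 and 0.443 ± 0.130 FPKM (SD, n = 3 each), 4.42-fold apart. These values stand for 2.03 to 2.20 fragments per kb in the controls and 5.42 to 11.3 with the siRNA at the estimated depths. The fold thus rests on few fragments per kb. Its 10 annotated transcripts (GENCODE M21) run from 522 to 8474 nt, so the number of fragments behind the fold is uncertain. Among the 6025 entries with a mean from 0.1 to 1 FPKM, 7.65% were higher in every siRNA library than in any control. Rgs8 entered the fit only with no filter, over 31660 entries, where its log2 fold change was 0.39 (SE 0.07) and did not pass (limma adjusted p = 0.197).

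Rgs4, an R4 regulator abundant in brain, had 1.54, 2.18 and 1.57 FPKM in controls 1 to 3 against 3.01, 3.03 and 2.40 FPKM in siRNA 1 to 3. The groups did not overlap, and the closest values were 2.18 in control library 2 and 2.40 in siRNA library 3. The control mean was 1.76 ± 0.358 FPKM (SD, n = 3) and the siRNA mean 2.81 ± 0.360 FPKM (SD, n = 3), a 1.6-fold difference. Its log2 fold change of 0.47 (SE 0.13, 95% interval 0.16 to 0.77) did not pass over all genes (limma adjusted p = 0.188). Of the 7 tested genes besides Rgs16, it was the one with an unadjusted p below 0.05 (limma). Such a p sets no gene apart here, since Rgs17, outside the set, had an unadjusted p of 0.0445 and an adjusted p of 0.279 (limma). The share of all entries with such a p is not given here, and nothing is read from this count.

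**Figure D1:**
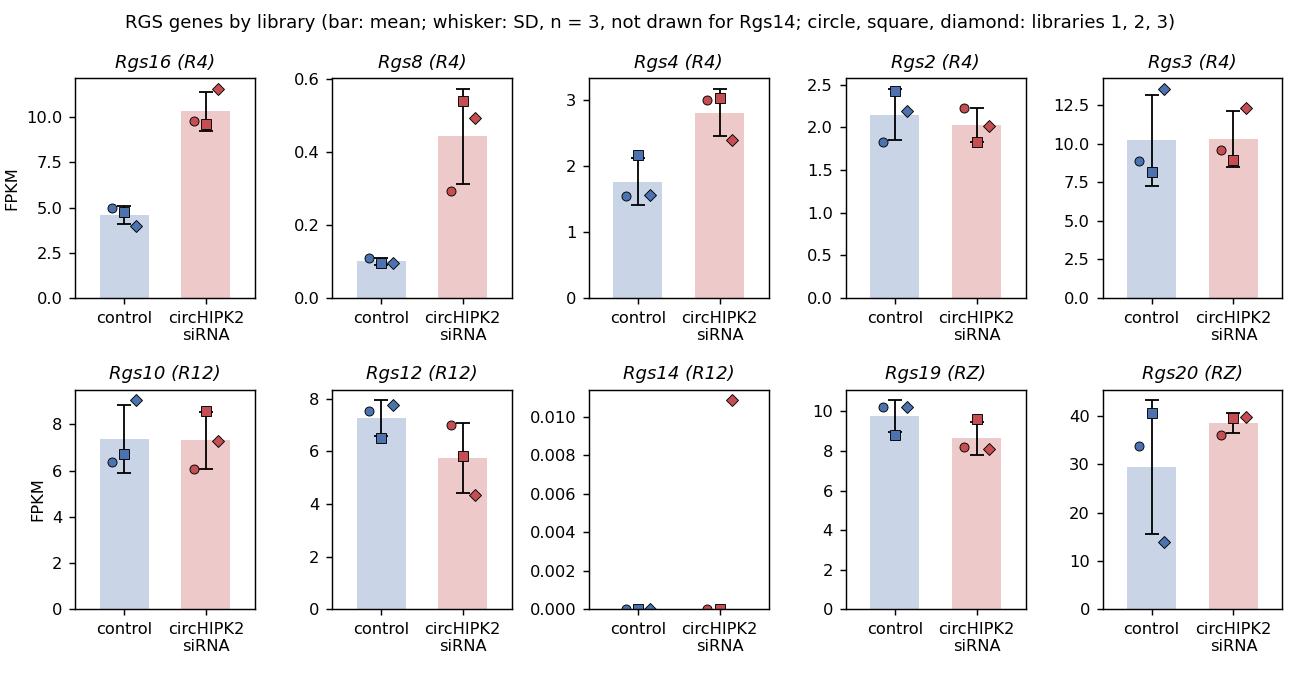
FPKM (vertical axis, from 0, scaled to each gene) of the 10 RGS genes in the 3 control libraries (blue) and the 3 circHIPK2 siRNA libraries (red); bars are means and whiskers SD (n = 3; points alone for Rgs14), and circle, square and diamond are libraries 1, 2 and 3. The siRNA points lie above every control point for Rgs16, Rgs8 and Rgs4, while for Rgs20 control library 3 stands at 14.0 FPKM, below the 5 other libraries.

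The other R4 genes of the set differed by less than the spread between libraries. Rgs2, which acts selectively on Gq, had 1.83, 2.43 and 2.19 FPKM in controls 1 to 3 against 2.23, 1.83 and 2.02 FPKM in siRNA 1 to 3 (log2 fold change −0.05, SE 0.12, 95% interval −0.33 to 0.22; limma adjusted p = 0.824). The groups overlapped over most of their range. Rgs3, whose long form has a PDZ domain and links ephrin-B to G-protein signalling in cortical progenitors, had 8.88, 8.18 and 13.5 FPKM in controls 1 to 3 against 9.56, 8.97 and 12.3 FPKM in siRNA 1 to 3. Library 3 was the highest of both groups, and the means of 10.2 ± 2.91 and 10.3 ± 1.80 FPKM were 1.01-fold apart (limma adjusted p = 0.944). The table gives Rgs3 as 1 gene value, so its 17 annotated transcripts (GENCODE M21) are not separated.

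Ratios between genes of a library do not depend on how that library was scaled. Of the summed FPKM of the 5 R4 genes of the set, Rgs16 made up 28.6%, 27.0% and 18.7% in controls 1 to 3 against 39.4%, 40.1% and 40.1% in siRNA 1 to 3. Rgs3 made up 51.3%, 46.3% and 63.3% in the controls and 38.4%, 37.4% and 42.8% with the siRNA, a smaller share at a mean FPKM that was 1.01-fold apart. Both shares contain the difference in Rgs16 for which the set was chosen, and are a description. Rgs16 stood at between 0.295 and 0.584 times Rgs3 in the controls and between 0.937 and 1.07 times Rgs3 with the siRNA. Rgs4 stood at between 0.716 and 0.897 times Rgs2 in the controls and between 1.19 and 1.65 times Rgs2 with the siRNA. The share of Rgs4 in the R4 sum, which contains Rgs16, overlapped between the groups. It was 8.92%, 12.3% and 7.33% in controls 1 to 3 against 12.1%, 12.6% and 8.33% in siRNA 1 to 3. The separation of Rgs4 thus depends on the gene or sum it is set against. Without Rgs16 the R4 sum was 14.2 ± 2.77 FPKM (SD, n = 3) in controls against 15.6 ± 1.5 FPKM (SD, n = 3) after silencing, and the libraries overlapped.

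**Figure D2:**
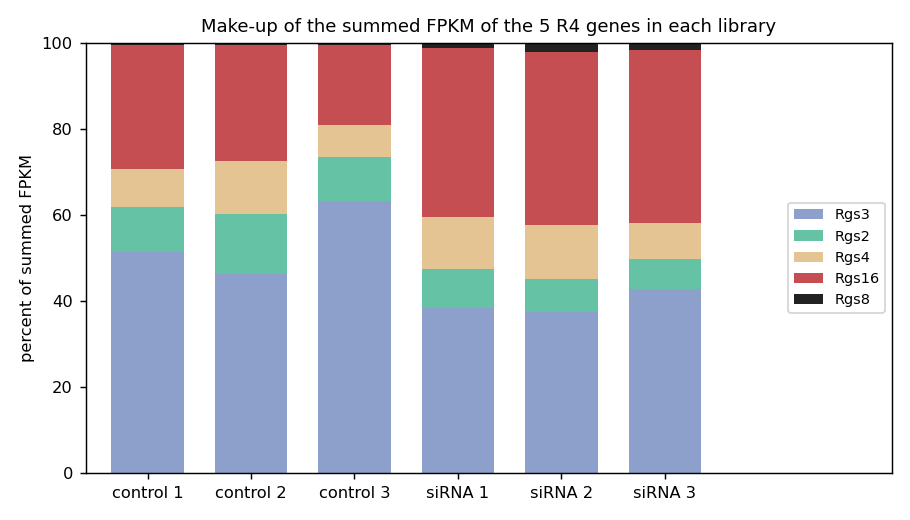
Share of the summed FPKM of the 5 R4 genes of the set (vertical axis, percent) held by each gene in the 3 control and 3 circHIPK2 siRNA libraries. Rgs16 takes 18.7% to 28.6% of the bar in the controls and 39.4% to 40.1% with the siRNA, while Rgs8 stays at or below 2.25% in all 6 libraries.

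Rgs8 and Rgs16 are next to each other on mouse chromosome 1, so the genes before them were read in their order in RefSeq (GRCm38.p6, used for order only). Of the 7 protein-coding genes with a row from 5 places before Rgs8 up to Rgs16, 2 were higher in every siRNA library than in any control, and these were Rgs8 and Rgs16 themselves. The share of all entries was 2.65% among those tested and 7.65% at the level of Rgs8, and nothing is read from this count, since Rgs16 chose the set. Npl, the next gene before Rgs8 and an enzyme of sialic acid breakdown, singled out only on its values, had 6.05, 6.26 and 7.47 FPKM in controls 1 to 3 against 5.51, 5.46 and 4.66 FPKM in siRNA 1 to 3. It was lower in every siRNA library as deposited, overlapped under median-of-ratios scaling and did not pass (log2 fold change −0.29, SE 0.11; limma adjusted p = 0.256). Dhx9, an RNA helicase gene named for its place beyond Npl, had 64.8 ± 11.2 FPKM in the controls and between 56.9 and 69.0 FPKM with the siRNA. Around Rgs4, its direct neighbour Rgs5, an R4 gene known from pericytes, was between 0.133 and 0.339 FPKM with overlapping groups. Nuf2, a kinetochore gene beyond Rgs5 singled out only on its values, had 24.3 ± 1.04 FPKM in controls against 18.3 ± 2.06 FPKM (SD, n = 3 each) and was lower in every siRNA library (limma adjusted p = 0.179). So was Brinp3 near Rgs2, singled out likewise, with 10.8 ± 1.98 against 6.41 ± 1.81 FPKM (limma adjusted p = 0.189). Of all entries tested, 22.1% were lower in this way as deposited, and Nuf2 and Brinp3 were not compared under other scalings. Next to Rgs2 the R4 genes Rgs1, Rgs18 and Rgs21 were listed at 0 in all libraries and Rgs13 in 5 of 6.

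**Figure D3:**
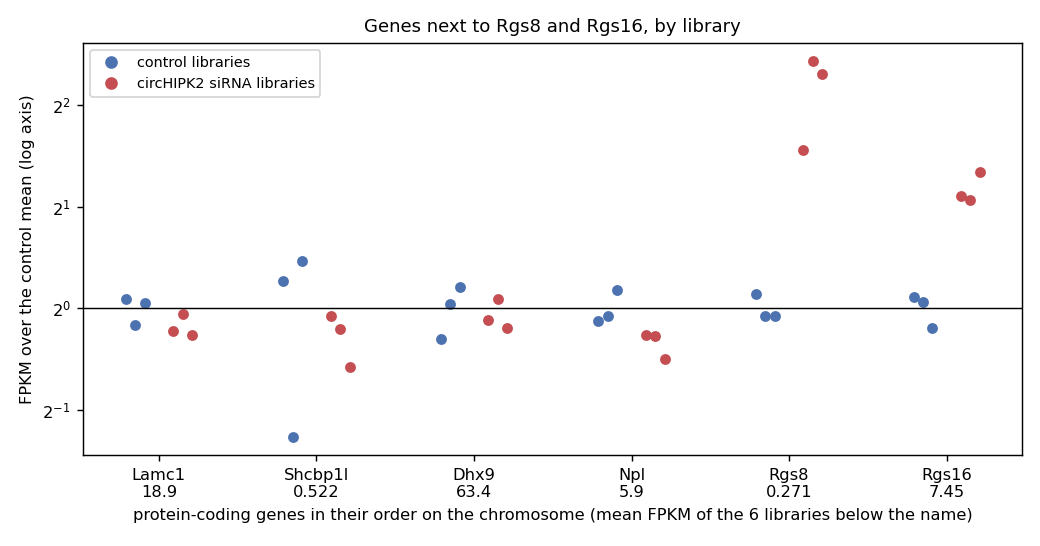
FPKM of each library divided by the control mean of the gene (vertical axis, log scale) for protein-coding genes up to Rgs8 and Rgs16 with a mean of at least 0.1 FPKM and no library at 0, in chromosomal order; blue points are control and red points siRNA libraries. The siRNA points lie above all control points for the adjacent Rgs8 and Rgs16 and below them for Npl.

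The promoters of the 3 R4 genes that did not overlap between groups are shown so that their sequences can be compared. They are 300-base windows around annotated starts from RefSeq (GRCm38.p6), which held 14 windows for 8 of the 10 genes. The Rgs16 window is chr1:153740103-153740402 on the plus strand, the first of 3 Rgs8 windows is chr1:153652787-153653086 on the plus strand, and the Rgs4 window is chr1:169747593-169747892 on the minus strand. Capitals mark matches on either strand to the CCAAT box, to the TATA box as TATAAA, to the GC box as GGGCGG, to the core of the cAMP response element as TGACG and to the AP-1 site as TGANTCA, or to the CArG box of serum response factor.
Rgs16: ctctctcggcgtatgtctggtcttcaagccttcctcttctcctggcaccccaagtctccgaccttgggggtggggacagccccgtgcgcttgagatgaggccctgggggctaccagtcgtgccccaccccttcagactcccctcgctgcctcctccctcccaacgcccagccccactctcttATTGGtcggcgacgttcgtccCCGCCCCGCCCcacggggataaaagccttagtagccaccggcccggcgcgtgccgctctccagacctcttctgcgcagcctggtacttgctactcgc
Rgs8: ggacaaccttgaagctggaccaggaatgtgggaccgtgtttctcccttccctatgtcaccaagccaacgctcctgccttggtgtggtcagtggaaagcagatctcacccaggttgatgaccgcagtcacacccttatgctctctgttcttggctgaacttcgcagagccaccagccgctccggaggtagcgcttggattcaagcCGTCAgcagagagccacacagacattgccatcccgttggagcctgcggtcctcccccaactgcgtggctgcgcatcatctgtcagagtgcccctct
Rgs4: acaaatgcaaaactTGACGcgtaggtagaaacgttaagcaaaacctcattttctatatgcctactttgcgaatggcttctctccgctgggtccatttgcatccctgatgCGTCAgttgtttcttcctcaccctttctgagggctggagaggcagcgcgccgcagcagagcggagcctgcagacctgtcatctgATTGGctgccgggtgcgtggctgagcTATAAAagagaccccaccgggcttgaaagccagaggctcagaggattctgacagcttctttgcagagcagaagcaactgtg

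Rgs16 and Rgs4 share a CCAAT match on the minus strand of the window (ATTGG as printed), whose first base lies at −68 from the start in Rgs16 and −57 in Rgs4. Of all 32817 promoter windows, 37.4% hold CCAAT. So do the other 2 Rgs8 windows, with first bases at −152 and −100, and the window of Rgs2, whose groups overlapped. Rgs16 has 2 overlapping GGGCGG matches (35.6% of windows hold 1 or more), which Rgs4 and all 3 Rgs8 windows lack. TGACG (20.8% of windows) occurs 2 times in Rgs4, 2 times in Rgs2, 1 time in the printed Rgs8 window and not in Rgs16. TATAAA (13.6%) begins at −31 in Rgs4. No window of these 3 genes holds TGANTCA (7.81%), and no member window holds a CArG box (1.63%). The matches are letters in a window, and binding was not measured.

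The R12 genes Rgs10 and Rgs12 overlapped between the groups, and Rgs14 was at the limit of detection. Rgs10, a short regulator of Gi signalling, had 6.36, 6.73 and 9.05 FPKM in controls 1 to 3 against 6.07, 8.57 and 7.27 FPKM in siRNA 1 to 3 (log2 fold change −0.01, SE 0.15, 95% interval −0.36 to 0.34; limma adjusted p = 0.98). The highest value was in control library 3, and the groups overlapped. Rgs12, a large scaffold with PDZ, Ras-binding and GoLoco domains, had 7.52, 6.5 and 7.78 FPKM in controls 1 to 3 against 7.01, 5.84 and 4.36 FPKM in siRNA 1 to 3. Its log2 fold change of −0.31 (SE 0.15, 95% interval −0.66 to 0.04) did not pass (limma adjusted p = 0.326), and it was −0.16 without siRNA library 3. Rgs14, known from hippocampal CA2 neurons, was listed at 0 in 5 libraries and at 0.0108 FPKM in siRNA library 3, under the value of 1 fragment per kb.

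The RZ genes include the most abundant of the 10. Rgs20, which prefers Gz, had 33.8, 40.6 and 14.0 FPKM in controls 1 to 3 against 36.1, 39.7 and 39.7 FPKM in siRNA 1 to 3. Control library 3 lay apart from the other 5, which ran from 33.8 to 40.6 FPKM. The means were 29.5 ± 13.8 and 38.5 ± 2.06 FPKM (SD, n = 3 each), with a log2 fold change of 0.50 (SE 0.32, 95% interval −0.24 to 1.24) that was not called (limma adjusted p = 0.428). Without control library 3 it was 0.05 (limma adjusted p = 0.882), and without control library 2 it was 0.79 (limma adjusted p = 0.27). Rgs20 overlaps Atp6v1h, a proton pump subunit gene on the opposite strand with a mean of 14.4 FPKM, so reads of the overlap cannot be assigned without strand. Rgs19, also called GAIP, had 10.2, 8.83 and 10.2 FPKM in controls 1 to 3 against 8.21, 9.60 and 8.08 FPKM in siRNA 1 to 3. The groups overlapped, with a log2 fold change of −0.16 (SE 0.11, 95% interval −0.40 to 0.08; limma adjusted p = 0.443).

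Compared per transcript length, the order of the mean FPKM in the controls was Rgs20, Rgs3, Rgs19, Rgs10, Rgs12, Rgs16, Rgs2, Rgs4, Rgs8 and Rgs14. Rgs3, Rgs19, Rgs10 and Rgs12 each overlapped the next of them, as Rgs2 did with Rgs4, whereas Rgs16 lay below every library of Rgs12 and above every library of Rgs2. With the siRNA Rgs16 was in the second place, its libraries overlapping those of Rgs3, and Rgs4 lay above every library of Rgs2. Summed over the 10 genes the level was 72.7 ± 9.20 FPKM (SD, n = 3) in controls against 86.1 ± 3.26 FPKM (SD, n = 3) after silencing, of which Rgs20 held 22.5% to 50.6%. The sum contains Rgs16, chosen for its rise (means 4.58 and 10.3 FPKM), and Rgs20 (29.5 and 38.5 FPKM), with control library 3 at 14.0 FPKM. The R4 sum without Rgs16, the R12 sum and the RZ sum each overlapped between the groups. A rise across the family is therefore not read from the sum of the 10 genes.

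Of the 8 tested genes, 1 was called higher, which was Rgs16 by the choice of the set, and 0 were called lower. Over all 13702 entries tested, 0.117% were called higher and 0.139% lower (limma, adjusted p below 0.05). Of the 19 entries called lower, 10 were liver markers. Rgs16 and Rgs4 were higher in all siRNA libraries than in any control, against 2.65% of all entries tested, and 0 of the 8 were lower in all of them, against 22.1%. With median-of-ratios scaling, which moved the median log2 fold change of all entries from −0.12 to −0.0012, those backgrounds were 10.1% above and 10.1% below, and Rgs16, Rgs8 and Rgs4 still did not overlap. Without the 9 ribosomal locus entries they were 14.1% and 4.29%, the same 3 genes were above, and Rgs20 was above as well. Since the set was drawn from this contrast, nothing is read from these counts. The median log2 fold change of the 7 tested genes besides Rgs16 was −0.01, and that of all entries −0.12. The call of Rgs16 on which the set was chosen is no independent test, and it itself depended on the settings. It was lost without siRNA library 3, under the median-of-ratios or quantile scalings, and with no filter, where the log2 fold change was between 0.95 and 1.14.

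**Figure D4:**
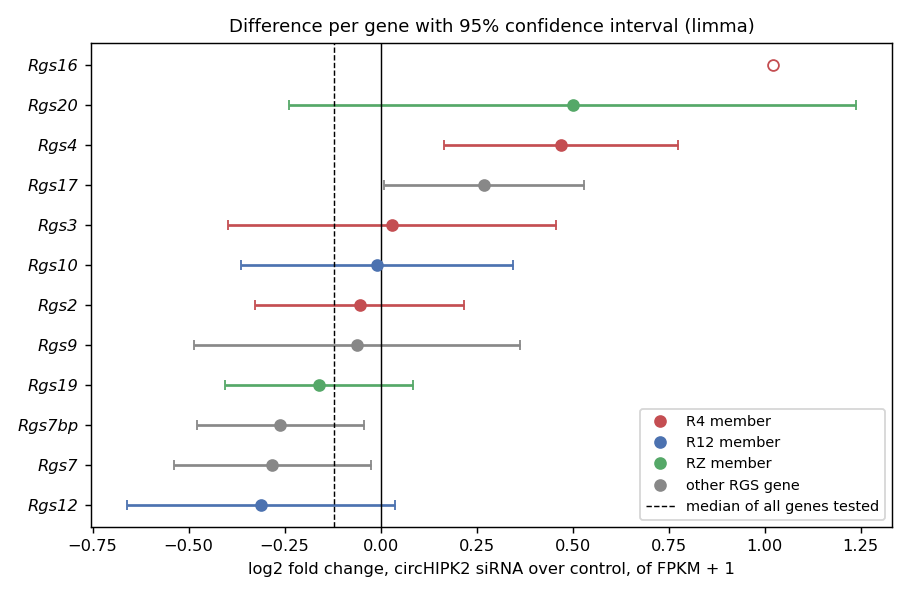
Log2 fold change of FPKM + 1, siRNA over control (horizontal axis), for the 8 tested members and 4 other tested RGS genes, with 95% confidence intervals from limma; Rgs16, chosen for its rise, is an open point with no interval. The intervals of Rgs4 and Rgs17 lie above 0 and those of Rgs7 and Rgs7bp below 0, though none of these 4 genes passed over all genes.

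Among the other 14 RGS-named genes, 4 had a mean of at least 1 FPKM and 0 passed. Of all entries tested 0.117% were called higher and 0.139% lower, so nothing is read from that 0. Rgs17, the third RZ gene, had 1.54, 1.74 and 1.54 FPKM in controls 1 to 3 against 1.91, 2.44 and 2.08 FPKM in siRNA 1 to 3, with no overlap (log2 fold change 0.27, SE 0.11; limma adjusted p = 0.279). Rgs7, an R7 regulator that is stable only when bound to the beta subunit Gnb5, had 20.6, 20.2 and 18.1 FPKM in the controls and 15.9, 18.1 and 14.2 FPKM with the siRNA, so that control 3 and siRNA 2 nearly met. Its membrane anchor Rgs7bp had 12.9 ± 0.417 and 10.6 ± 0.852 FPKM, and Gnb5, singled out only on its values, had 16.1 ± 0.314 and 12.5 ± 0.818 FPKM (SD, n = 3 each). All 3 were lower in every siRNA library as deposited, as were 22.1% of all entries. With median-of-ratios scaling Rgs7 overlapped, and without the ribosomal locus entries Rgs7 and Rgs7bp did. Their log2 fold changes were −0.28, −0.26 and −0.34, and their limma adjusted p-values 0.258, 0.236 and 0.173. Rgs9, the other R7 gene at this level, had 1.41 ± 0.549 and 1.28 ± 0.312 FPKM with overlapping libraries.

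The G proteins, kinases and effectors around the RGS genes were read from lists of their families, and 0 of their genes passed in either direction. Since only 0.117% of all entries tested were called higher and 0.139% lower, nothing is read from that 0. Because the scaling moves the sign of genes near 0, the members of the lists are given against the median of all entries (−0.12). Of 11 G protein alpha subunits tested, 8 lay below that median and 3 above it, with a list median of −0.22. The most abundant, the Gi subunit Gnai2, had 290, 380 and 219 FPKM in controls 1 to 3 against 197, 226 and 180 FPKM in siRNA 1 to 3, where control 3 overlapped siRNA 2 (limma adjusted p = 0.24). Of 10 beta and gamma subunits, 6 lay below (list median −0.16), and Gnb2 had 131 ± 16.3 FPKM in controls against 110 ± 15.9 FPKM (SD, n = 3 each).

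Of 6 receptor kinases and arrestins, which switch off active receptors, 5 lay below (list median −0.19), and the kinase Grk2 had 24.1 ± 1.21 against 19.9 ± 2.92 FPKM. Of 6 adenylyl cyclases, which make cAMP and are inhibited by Gi, 4 lay below (list median −0.22), and Adcy6 had 9.52 ± 0.51 against 8.89 ± 0.629 FPKM. Of 8 other modulators and effectors, 5 lay below (list median −0.21), and Rap1gap, a GTPase activator for Rap, had 18.4 ± 9.85 against 16.7 ± 3.12 FPKM. The 9 genes with an RGS-like domain lay mostly on the other side, with 6 above the median of all entries and a list median of −0.03, and Arhgef12 had 19.9 ± 0.887 against 21.1 ± 1.05 FPKM. The limma adjusted p-values of Gnb2, Grk2, Adcy6, Rap1gap and Arhgef12 were 0.376, 0.297, 0.628, 0.997 and 0.65. Under the 3 other scalings each of these 6 list medians kept its side of the median of all entries, with differences from it between −0.13 and 0.10. These scalings act on whole libraries and move both medians together, so this is no independent check. The differences of the lists from that median were not tested.

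Of 26 receptors tested, 13 lay below the median of all entries and 13 above it. None passed, against 0.117% called higher and 0.139% lower of all entries tested. The most abundant, the endothelin receptor Ednrb, had 207 ± 25.4 FPKM in controls against 178 ± 19.7 FPKM (SD, n = 3 each; limma adjusted p = 0.411). S1pr3, a sphingosine 1-phosphate receptor that couples to Gi, Gq and G12/13 and was singled out only on its values, had 2.26, 4.04 and 1.95 FPKM in controls 1 to 3 against 6.24, 6.98 and 5.54 FPKM in siRNA 1 to 3. Of the 26 tested receptors, 1 (S1pr3) was higher and 7 were lower in all siRNA libraries, against 2.65% and 22.1% of all entries tested. S1pr3 was 2.27-fold higher by the means, and it did not pass (log2 fold change 0.99, SE 0.19; limma adjusted p = 0.119).

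**Figure D5:**
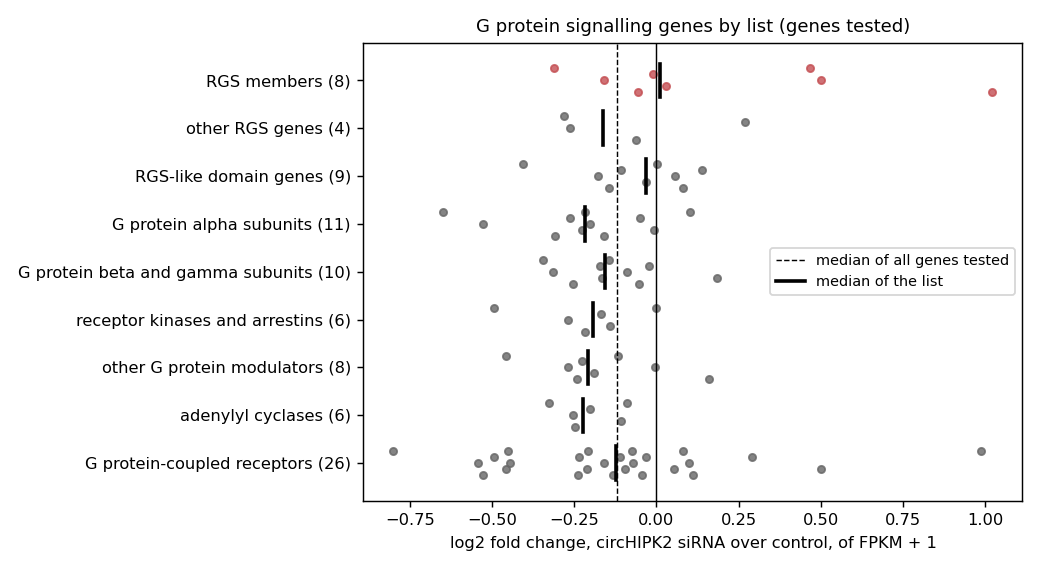
Log2 fold change of FPKM + 1, siRNA over control (horizontal axis), of the tested genes in each list, with the number of genes in brackets; each point is a gene, black bars are list medians and the dashed line is the median of all entries tested (−0.12). The alpha subunit, beta and gamma subunit, kinase, modulator and cyclase medians lie between −0.16 and −0.22, and the point farthest right among the receptors is S1pr3.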

How the data were processed

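The deposited table gave FPKM values for 6 libraries, made by the authors. The submitters' processing notes name HISAT, StringTie, edgeR and the build mm9. Their versions and roles, the annotation and strand use are not given in the sources used. FPKM were used as deposited, with 1 added before log2, for entries averaging 1 FPKM or more. The test was limma 3.58.1 under R 4.3.3 (mean-variance trend, two-sided, Benjamini-Hochberg adjustment over 13702 entries), and entries were called at an adjusted p below 0.05. Tables were made with Python 3.11.15. Log2 fold changes on the log2(FPKM + 1) scale understate changes of scarce genes, and a fold is the ratio of the group means. No exact test was run, since 3 against 3 libraries reach a two-sided p of 0.1 at best. Depth was read from the steps of low FPKM values of genes with 1 transcript in GENCODE M21: between 38.4% and 42.2% lay within 0.05 of a whole fragment, against 10% by chance, with steps of double depth meeting 46.8% to 48.5%. The steps of the fit were tested on simulated data. The genes and lists were chosen with earlier results of these data known. Named were the 10 genes, Hipk2, RGS genes of at least 1 FPKM, called genes of a list or else its most abundant, and the 5 genes most like Rgs16; others are marked as chosen after their values were seen. Genes on the far side of Rgs16 are not reported here. Alternatives were other pseudocounts (0.1 and 0.5), filters and scalings, no trend, a replicate block and each library left out. Removal of the 9 ribosomal locus entries was chosen after seeing the data.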

Additional observations from a re-analysis of the deposited data

How the results depend on the processing

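Depth limits Rgs8 and Rgs14, and 3 libraries a group limit every test. The median of all entries moved from −0.12 to −0.0012 with median-of-ratios scaling, to 0.00060 with quantile scaling and to 0.06 without the 9 ribosomal locus entries, so signs near 0 depend on the scaling. Under these 3 settings, in that order, Rgs2 turned to 0.0396, 0.0173 and 0.0886, Rgs10 to 0.11, 0.10 and 0.17 and Rgs9 to 0.0176, 0.0043 and 0.0556, and without the 9 entries Rgs19 turned to 0.0268. With 1 library left out Rgs2 ran from −0.13 to 0.0084, Rgs3 from −0.10 to 0.23, Rgs10 from −0.12 to 0.13 and Rgs9 from −0.22 to 0.10. Rgs16 was above 0 in all 15 settings, at 0.95 to 1.07 with 1 library left out, 1.16 with a pseudocount of 0.1 and 1.21 without the 9 entries. Of the other members 0 were called in the settings that tested them (lowest adjusted p = 0.112, limma): Rgs8 and Rgs14 entered with no filter alone, and Rgs2 and Rgs4 were not tested with a mean of at least 5 FPKM. The counts over all entries (16 higher, 19 lower) were 7 higher with no filter, 8 lower with a mean of at least 5 FPKM, 3 and 11 with median-of-ratios and 4 and 12 with quantile scaling, and 2 to 15 higher and 6 to 23 lower with 1 library left out. The counts without siRNA library 3 were 2 and 6, without control library 3 they were 8 and 14, without control library 2 they were 10 and 14, and without control library 1 they were 15 and 12. The cause of these changes was not tested. Calls that were higher made up 45.7%, and 21.4% under median-of-ratios scaling, 25% under quantile scaling, 24.1% with no filter and 63.6% with a mean of at least 5 FPKM. With the replicate number as a block 23 entries were called higher and 23 lower, and no call among the members changed. Same-numbered libraries deviated together little (r from 0.02 to 0.13 across genes, which are not independent). For libraries of different number r ran from −0.17 to 0.12. Whether a shared number pairs libraries is not stated, and these few values cannot decide it.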

Other observations

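The 5 tested genes whose libraries followed Rgs16 most closely were Gadd45b, Malat1, Syt4, Rpl21 and Ccl2. Likeness was the root mean square difference of log2(FPKM + 1), centred on the control mean, over the 6 libraries. It was 0.09 for Gadd45b, a growth arrest and stress gene, with 1.41, 1.64 and 1.48 FPKM in controls 1 to 3 against 3.96, 3.67 and 4.84 FPKM in siRNA 1 to 3. As for Rgs16, siRNA library 3 was its highest and siRNA library 2 its lowest of the siRNA group. The difference was 0.13 for the long noncoding RNA Malat1 and the vesicle protein gene Syt4, 0.16 for the ribosomal protein gene Rpl21 and 0.17 for the chemokine gene Ccl2. Genes picked for likeness to Rgs16 over the 6 libraries are higher with the siRNA by that choice, so their direction is a description. The choice also favours genes with the library order of Rgs16, so the order shared with Gadd45b is a description too.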
